A study of Mus musculus with 45 samples.

Results

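The response of epididymal fat to a high-fat diet was examined in C57Bl/6 (B6) mice, a common inbred strain, on the 8 arrays of that tissue and strain among the 45 arrays of the series. They were chosen by their labels: 4 arrays (replicates 1, 3, 4 and 5) from the low-fat and 4 (replicates 2, 6, 7 and 8) from the high-fat diet. All mice were 6 months old and carried no transgene or drug treatment in the labels. Each array received labelled cRNA from RNA of 2 to 3 mice pooled, so the spread between arrays is a spread between pools and p-values measure only that spread; the number of arrays limits the precision. The study compared liver, skeletal muscle and epididymal fat of 2 inbred strains on the same 2 diets. Its design text describes a standard diet in which fat supplied 21%, protein 22% and carbohydrate 57% of the calories; which of the 2 diets this was, and what the other contained, the sources used here do not say. Fat of 129S6/SvEvTac (129S6) mice, with 3 low-fat and 3 high-fat arrays of the same age and pooling, serves below for a side-by-side reading and shares in the estimate of the spread.

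Epididymal fat is the large visceral fat pad of male mice and stores triglyceride in adipocytes, which make fatty acids from glucose, take them up from the blood and release them during fasting. The pad also holds a stroma of macrophages, lymphocytes, fibroblasts and vessels and is covered by a mesothelium. On a high-fat diet adipocytes are known to enlarge, macrophages with abundant lysosomes to gather around dying adipocytes, and collagen to accumulate. Adipocytes secrete hormones such as leptin and adiponectin, whose blood levels move in opposite directions in obesity.

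Values are log2 expression levels of probe sets, and a difference is high-fat minus low-fat in log2 units ± SE, with 4 arrays on each diet unless stated and the Benjamini-Hochberg adjusted p of limma over 8251 genes. A gene is said to have risen or fallen where the adjusted p was under 0.05. Of 12 adipocyte marker genes listed, 10 were measured, and 7 of them, among them Adipoq, Lep, Cidec and Pparg, were higher in each B6 fat array than in every B6 liver and muscle array. Slc2a4, Aqp7 and Cd36 were not. In bulk tissue, fewer cells of a type and less RNA per cell cannot be told apart.

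High-fat replicate 7 stood apart from the other 7 arrays. The control probe sets of Gapdh, a glycolytic enzyme, report the signal near the 3' end of the transcript minus that near the 5' end, which is known to rise as RNA degrades. This signal was -0.06, 0.05, 0.00 and 0.06 in low-fat replicates 1, 3, 4 and 5, and 0.03, 0.41, 6.03 and 2.36 in high-fat replicates 2, 6, 7 and 8. Replicate 7 was thus highest and replicate 8 second, and the difference between the diets had p = 0.0857 in a two-sided exact permutation test over 70 regroupings (smallest possible 0.0286; 0.286 adjusted over 5 measures of array quality). Pairwise correlations over the probe sets lay between 0.966 and 0.990 among the other 7 arrays and between 0.860 and 0.907 for replicate 7. Many of the results in which this array is extreme are given with and without it. Among the 129S6 arrays, high-fat replicates 12 and 13 had Gapdh signals of 5.81 and 5.93.

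**Figure D1:**
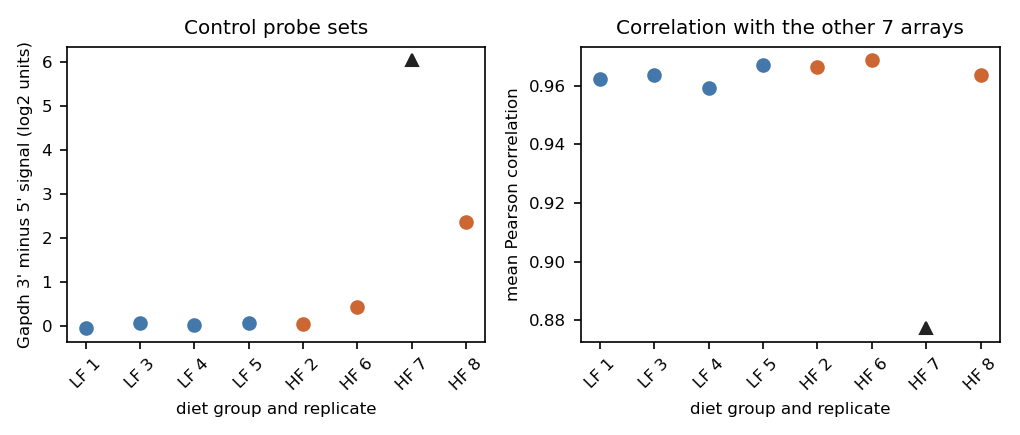
The left panel plots the 3' minus 5' signal of the Gapdh control probe sets in log2 units for each of the 8 B6 fat arrays, and the right panel the mean Pearson correlation of each array with the other 7; low-fat arrays are blue, high-fat arrays orange and high-fat replicate 7 is a black triangle. Replicate 7 has a signal of 6.03 and a mean correlation of 0.877, and the other 7 arrays have mean correlations from 0.959 to 0.969.

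Limma called 23 genes (0.279% of those tested), 19 higher (0.23%) and 4 lower (0.0485%) on the high-fat diet. Without high-fat replicate 7 it called 37 (0.448%), 31 higher (0.376%) and 6 lower (0.0727%), among them 22 of the 23; Cxcl9 was lost with an adjusted p of 0.0694. An unadjusted p under 0.05 was found for 1255 genes with all arrays, 807 higher and 448 lower, and for 843 without replicate 7. When 129S6 high-fat replicates 12 and 13 were left out as well, which leaves 1 array in that group, the count was 182 (2.21%), 163 higher (1.98%) and 19 lower (0.23%), and included all 23. Leaving out these 129S6 arrays changed no B6 value, so each B6 difference was the same as without replicate 7 alone. The added calls came with a changed estimate of the spread, to which both strains contribute in that fit. Not all of them needed the 129S6 arrays. A fit of the B6 arrays alone without replicate 7 called 74 genes, most of them also called without the 129S6 arrays named. Over the genes tested, all 4 high-fat values lay above all 4 low-fat values in 473 (5.73%) and below them in 237 (2.87%).

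The count rested on single arrays. It was 1 without low-fat replicate 1, 1 without low-fat replicate 3, 5 without low-fat replicate 4, 9 without low-fat replicate 5, 34 without high-fat replicate 2, 39 without high-fat replicate 6 and 5 without high-fat replicate 8. Cstb, which encodes the cathepsin inhibitor cystatin B, was past the threshold whichever of the 8 arrays was left out, and Lox, Gpam and Chchd10 were with 6 of the 8. The other 19 called genes were with 1 to 4 of the 8. A fit of the 8 B6 arrays alone called 1 gene, Cd72, a receptor of B lymphocytes, which is not among the 23 (1.68 ± 0.47, adjusted p = 0.185, in the fit of all fat arrays). The same fit without replicate 7 called 74 genes, 20 of the 23 among them. Without high-fat replicates 7 and 8, which had the highest Gapdh signals of the 8 arrays, the fit of all fat arrays called 21 genes, 10 of the 23 among them.

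**Figure D2:**
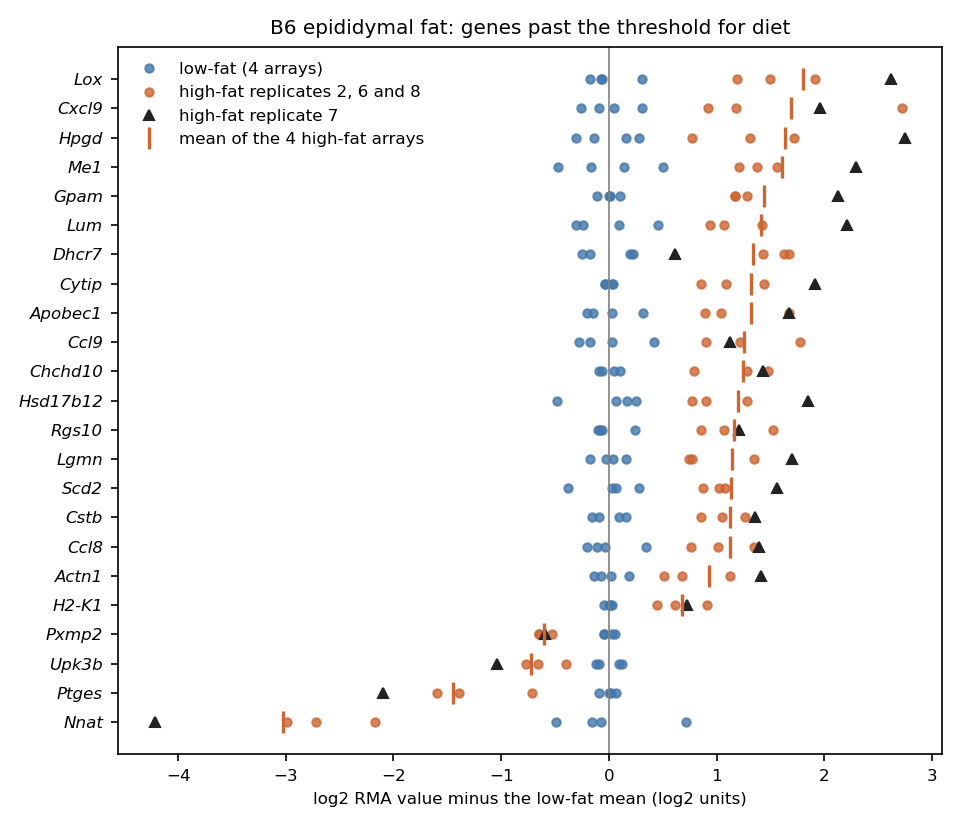
Each row is a gene that passed the threshold, and the horizontal axis is the log2 value of an array minus the mean of the 4 low-fat arrays. Low-fat arrays are blue points, high-fat replicates 2, 6 and 8 orange points, high-fat replicate 7 a black triangle and the mean of the 4 high-fat arrays a vertical tick. In all 23 genes the high-fat arrays lie on the same side of every low-fat array, and Nnat has the largest difference, -3.03.

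The largest difference among the genes called was a fall in Nnat. Nnat encodes neuronatin, a small membrane protein whose gene is imprinted and expressed from the paternal copy. Its level was 9.15, 9.06, 8.73 and 9.94 in low-fat replicates 1, 3, 4 and 5 and 6.50, 6.23, 5.00 and 7.04 in high-fat replicates 2, 6, 7 and 8. The groups did not overlap, replicate 7 being the lowest, and the difference was -3.03 ± 0.49 (adjusted p = 0.0231), or 8.14-fold lower. Without replicate 7 it was -2.63 ± 0.44 (adjusted p = 0.0185). Among 15 measured genes of adipose expansion and imprinting, Nnat was the single gene called. Mest, an imprinted gene whose expression in fat varies with fat mass, was at 8.16, 8.17, 7.79 and 9.24 on the low-fat diet and 8.25, 8.09, 10.00 and 8.98 on the high-fat diet. These values overlapped, with replicate 7 highest (0.49 ± 0.38, adjusted p = 0.495; 0.10 without replicate 7). Npr3, the clearance receptor of natriuretic peptides, was at 4.73 in replicate 7 and between 9.47 and 10.04 in the other 7 arrays.

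Genes of fatty acid and triglyceride synthesis were among the largest increases. Gpam encodes the mitochondrial acyltransferase that starts glycerolipid synthesis. It was at 8.64, 8.77, 8.76 and 8.86 in the low-fat arrays and 9.93, 9.93, 10.89 and 10.04 in the high-fat arrays. The low-fat arrays lay close together, all below the high-fat arrays, and replicate 7 was the highest (1.44 ± 0.19, adjusted p = 0.00889; 1.21 ± 0.11, adjusted p = 0.000602, without it). Me1, the cytosolic malic enzyme that supplies NADPH for fatty acid synthesis, had values of 9.11, 9.43, 9.73 and 10.09 on the low-fat diet. On the high-fat diet they were 10.80, 10.96, 11.88 and 11.15, all above the low-fat values (1.61 ± 0.24, adjusted p = 0.0163; 1.38 ± 0.20 without replicate 7). Scd2, a stearoyl-CoA desaturase, was between 9.52 and 10.18 on the low-fat diet and between 10.78 and 11.46 on the high-fat diet (1.14 ± 0.18, adjusted p = 0.0184), and a second probe set showed 1.81 ± 0.25 (adjusted p = 0.0122 among all probe sets). Hsd17b12, an enzyme of fatty acid elongation, also rose, from a mean of 8.62 ± 0.33 to 9.82 ± 0.48 (SD; 1.20 ± 0.22, adjusted p = 0.0474). Without replicate 7 its difference was 0.99 ± 0.18.

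Most other members of these lists did not pass. Of 18 measured genes of de novo lipogenesis 2 rose and 0 fell, in 4 (22.2%) the high-fat arrays all lay above the low-fat arrays, and the median difference was 0.12, or 0.28 without replicate 7, against -0.03 and 0.01 over all genes. Acly, which makes cytosolic acetyl-CoA, was between 9.63 and 10.15 on the low-fat diet and between 10.30 and 10.86 on the high-fat diet, without overlap (0.74 ± 0.20, adjusted p = 0.163). Fasn, the fatty acid synthase, was at 10.91, 11.01, 11.61 and 11.82 on the low-fat diet and 11.67, 11.80, 11.08 and 11.85 on the high-fat diet. The ranges overlapped (0.26 ± 0.26, adjusted p = 0.595). Scd1, the main adipocyte desaturase, differed by 0.65 ± 0.17 (adjusted p = 0.155). For Srebf1, whose protein switches on lipogenic genes, the difference was -0.08 ± 0.14 (adjusted p = 0.768; 0.03 without replicate 7). Without the 3 arrays of high Gapdh signal, Acly (0.65 ± 0.14, adjusted p = 0.0317) and Pgd, an NADPH-producing dehydrogenase of the pentose phosphate pathway (0.97 ± 0.15, adjusted p = 0.00731), passed as well. Among 9 genes of triglyceride synthesis, Gpam was the single gene called, and the median of the list was -0.23 with all arrays and 0.23 without replicate 7. Pck1, which makes glycerol phosphate precursors in fat, did not overlap between the diets (1.20 ± 0.34, adjusted p = 0.2).

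Cholesterol synthesis genes had the highest median among the 47 gene lists, 0.68 over 17 measured genes and 0.57 without replicate 7. In 6 of the 17 (35.3%) all high-fat arrays exceeded all low-fat arrays, beside 5.73% of all genes, and in 1 (5.88%) they were all below. Dhcr7, the reductase that forms cholesterol in the last step of its synthesis, was the gene of the list that rose. Its level was 4.82, 4.74, 5.21 and 5.18 in the low-fat arrays and 6.62, 6.66, 5.60 and 6.42 in high-fat replicates 2, 6, 7 and 8. Replicate 7 was here the lowest of the high-fat arrays, still above the low-fat arrays (1.34 ± 0.25, adjusted p = 0.0474; 1.58 ± 0.20, adjusted p = 0.00391, without it). Lss, which closes the sterol rings, was at 7.15, 6.81, 6.99 and 7.13 on the low-fat diet and 7.71, 7.95, 7.51 and 7.64 on the high-fat diet. These groups did not overlap either; the difference was 0.68 ± 0.13 (adjusted p = 0.054), and 0.75 ± 0.13 (adjusted p = 0.027) without replicate 7. Ebp, a sterol isomerase, was between 6.28 and 6.68 and between 7.03 and 7.36 (0.71 ± 0.19, adjusted p = 0.173). Without the 3 arrays of high Gapdh signal 6 of the 17 were called, all higher: Dhcr7, Lss, Ebp, Fdps, Idi1 and Mvd. That fit called 1.98% of all genes higher. Of the 17 genes, 4 had a negative difference with all arrays.

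The bases before the transcription starts of Dhcr7, Lss and Ebp are shown because the cholesterol list had the highest median and these 3 members had the smallest adjusted p without the 3 arrays. Sterol-responsive genes are bound by SREBP factors together with NF-Y, which recognises CCAAT. The sequences come from RefSeq, build GRCm38.p6, run 5' to 3' in the direction of transcription and end at the base before the annotated start. Capitals mark CCAAT on either strand, and in the second Dhcr7 sequence CACGTG and TCACNNCAC. RefSeq lists 3 starts of Dhcr7, and the sequences shown belong to the windows with these matches.
Dhcr7, chr7:143830094-143830213, + strand: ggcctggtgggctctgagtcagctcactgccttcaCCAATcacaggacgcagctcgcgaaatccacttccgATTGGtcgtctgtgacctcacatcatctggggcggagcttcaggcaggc
Dhcr7, chr7:143823219-143823398, + strand: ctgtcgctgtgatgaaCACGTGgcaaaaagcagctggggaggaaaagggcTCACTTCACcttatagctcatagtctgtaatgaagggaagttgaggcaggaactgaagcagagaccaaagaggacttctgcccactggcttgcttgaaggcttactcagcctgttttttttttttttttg
Lss, chr10:76531485-76531604, + strand: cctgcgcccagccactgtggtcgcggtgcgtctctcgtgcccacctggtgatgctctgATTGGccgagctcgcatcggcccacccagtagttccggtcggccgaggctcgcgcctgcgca
Ebp, chrX:8193513-8193632, - strand: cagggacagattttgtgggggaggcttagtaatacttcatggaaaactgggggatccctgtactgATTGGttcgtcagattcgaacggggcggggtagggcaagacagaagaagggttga
In the first Dhcr7 sequence CCAAT begins 85 and 49 bases before the start, in Lss 62 and in Ebp 55. In the second, CACGTG begins 164 and TCACNNCAC 130 bases before it. Of the 17 cholesterol genes, 14 had a window, and the 250 bases before a start held CCAAT on either strand in all 14, compared with 37.5% of the 27025 genes of the table. CACGTG was present in 4 of the 14 and in 6.86% of all genes, and TCACNNCAC in 4 of the 14 and in 3.63%. These are letter matches, a gene with several starts has more chances of one, and binding was not measured. The 14 genes were taken by list, whatever their diet difference, so these shares do not bear on the response to diet. Among the 18 called genes with a window, CCAAT was in 8 (44.4%).

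The chemokine genes Cxcl9, Ccl8 and Ccl9 rose. Cxcl9, a chemokine induced by interferon gamma that draws T cells, was at 5.76, 5.51, 5.20 and 5.36 on the low-fat diet and 6.38, 6.63, 7.42 and 8.18 on the high-fat diet. High-fat replicate 8 was the highest and no values overlapped (1.70 ± 0.32, adjusted p = 0.0492). Ccl8, a monocyte chemokine, was at 8.49, 8.42, 8.87 and 8.33 and then at 9.54, 9.29, 9.92 and 9.87, again without overlap (1.13 ± 0.17, adjusted p = 0.0163; 1.04 ± 0.17 without replicate 7). Ccl9, a chemokine of myeloid cells, was at 9.89, 9.58, 10.28 and 9.69 in the low-fat arrays and 11.08, 10.77, 10.99 and 11.63 in the high-fat arrays. Replicate 7 lay within the other high-fat arrays (1.26 ± 0.22, adjusted p = 0.0392; 1.30 ± 0.24 without it). Of 44 measured chemokines and cytokines these 3 rose and 0 fell, where 0.23% of all genes rose. In 5 (11.4%) the high-fat arrays all lay above the low-fat arrays and in 0 below, beside 5.73% and 2.87% of all genes. Of the 44, 23 were positive and the median difference was 0.01. Of 32 chemokine and cytokine receptors 0 were called and the median was 0.01. There 0 had all high-fat arrays above and 2 (6.25%) all below the low-fat arrays. Ccl2, the classical monocyte chemokine, was at 7.78, 7.21, 7.95 and 7.74 and at 8.01, 7.63, 9.50 and 8.00, with overlap (0.61 ± 0.34, adjusted p = 0.381; 0.21 without replicate 7). Tnf differed by -0.17 ± 0.15 (adjusted p = 0.555) and Saa3, an acute phase protein of fat, by 0.87 ± 0.31 (adjusted p = 0.255).

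The windows before the starts of the 3 chemokine genes that rose are printed to compare them. Matches to GGGNNTTCC, a short pattern found in some NF-kB sites, are in capitals on either strand. Other forms of these sites were not searched for.
Cxcl9, chr5:92328080-92328229, - strand: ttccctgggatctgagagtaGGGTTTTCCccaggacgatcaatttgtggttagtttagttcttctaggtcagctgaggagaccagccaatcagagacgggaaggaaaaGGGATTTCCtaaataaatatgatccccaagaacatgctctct
Ccl9, chr11:83578637-83578786, - strand: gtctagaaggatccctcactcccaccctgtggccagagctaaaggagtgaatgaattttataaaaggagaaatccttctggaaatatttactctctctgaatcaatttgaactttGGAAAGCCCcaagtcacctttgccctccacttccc
Ccl8, chr11:82115035-82115184, + strand: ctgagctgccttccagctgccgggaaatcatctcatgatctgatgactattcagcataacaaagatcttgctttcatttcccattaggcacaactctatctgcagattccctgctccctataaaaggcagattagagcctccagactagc
Matches begin 130 and 42 bases before the start of Cxcl9 and 35 before that of Ccl9, where the match is on the opposite strand. Ccl8 has no match in its 250 bases. This motif is in the windows of 5.61% of all genes, and in those of 6 of the 18 called genes that had a window. Besides Cxcl9 and Ccl9 these are Actn1, Dhcr7, H2-K1 and Lgmn, and the 18 genes have 24 windows. CCAAT was in 8 of the 18 (44.4%, against 37.5% of all genes), CACGTG in 2 (11.1% and 6.86%) and TCACNNCAC in 1 (5.56% and 3.63%). No test of these shares was made, and binding was not measured.

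H2-K1, Cytip, Apobec1 and Rgs10 also rose. H2-K1, a classical MHC class I heavy chain, was at 11.76, 11.81, 11.84 and 11.82 on the low-fat diet and 12.26, 12.42, 12.53 and 12.72 on the high-fat diet, tight within each group and without overlap (0.68 ± 0.11, adjusted p = 0.0242). Its other probe sets gave 0.57 ± 0.12 (adjusted p = 0.0843) and, at a low signal, -0.08 ± 0.13 (adjusted p = 0.774, both over all probe sets); class I genes are near-identical, so probes may read several of them. Cytip, a scaffold protein of leukocytes, rose from 6.53 ± 0.04 to 7.85 ± 0.46 (SD; 1.32 ± 0.22, adjusted p = 0.0242), and its other, dimmer probe set gave 0.68 ± 0.29 (adjusted p = 0.327). Without replicate 7 the difference of the brighter probe set was 1.13 ± 0.19. Apobec1, the cytidine deaminase that edits Apob mRNA, rose by 1.32 ± 0.20 (adjusted p = 0.0163), and Rgs10, a regulator of G protein signalling abundant in myeloid cells, by 1.16 ± 0.20 (adjusted p = 0.0286). The 2 other Rgs10 probe sets, both dimmer, gave -0.09 ± 0.10 and 0.34 ± 0.19. Of 24 measured MHC genes 1 rose and 0 fell, where 0.23% of all genes rose. In 4 (16.7%) the high-fat arrays all lay above the low-fat arrays and in 0 below, beside 5.73% and 2.87% of all genes. The median difference was 0.20, or 0.49 without replicate 7. The invariant chain Cd74 shows the gap between these values: it was between 11.74 and 12.02 in the low-fat arrays and at 12.42, 12.47, 9.45 and 12.72 in the high-fat arrays. Replicate 7 was far below all others, and the difference was -0.12 ± 0.57 with it (adjusted p = 0.922) and 0.65 ± 0.25 without it (adjusted p = 0.385; 0.021 without the 3 arrays). The class II chain H2-Eb1 was likewise at 8.64 in replicate 7 and between 10.59 and 11.28 in the other high-fat arrays, above the low-fat range of 9.97 to 10.24.

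Most macrophage and lysosome genes had a positive difference that did not pass the threshold. Of 35 measured macrophage genes 23 were positive and 0 were called, 9 (25.7%) had all high-fat arrays above all low-fat arrays and 0 below, and the median difference was 0.32, or 0.44 without replicate 7. Adgre1, a surface marker of mature macrophages, was at 7.68, 7.82, 8.69 and 8.07 and at 9.23, 8.66, 10.18 and 9.22, with overlap (1.26 ± 0.50, adjusted p = 0.3). Without replicate 7, the highest array, it differed by 0.97 ± 0.50 (adjusted p = 0.557). Cd68, a lysosomal membrane protein of macrophages, was at 9.22, 8.70, 9.49 and 9.16 on the low-fat diet and 10.45, 9.85, 7.86 and 10.79 on the high-fat diet. Replicate 7 was the lowest of all 8 arrays; the difference was 0.60 ± 0.55 with it and 1.22 ± 0.37 without it (adjusted p = 0.223; 0.0164 without the 3 arrays). C1qb, a complement subunit made by macrophages, was at 7.51 in replicate 7 and between 10.36 and 11.09 in the other high-fat arrays, against 9.52 to 9.77 on the low-fat diet. Without the 3 arrays 7 macrophage genes were called, all higher, among them C1qb (adjusted p = 0.00927), Ptprc, the leukocyte common antigen (adjusted p = 0.0164), Tyrobp and Mpeg1. Over all genes, 1.98% were called higher in that fit. The B6 difference of Cd68 was 1.22 there too, and its SE was 0.22 in place of 0.37. Itgax, a marker of inflammatory macrophages and dendritic cells, differed by 0.51 ± 0.25 (adjusted p = 0.347).

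Lgmn, the lysosomal protease legumain, was the gene called among 37 of lysosomes and lipid-associated macrophages. It was at 7.54, 7.39, 7.61 and 7.73 on the low-fat diet and 8.34, 8.31, 9.27 and 8.92 on the high-fat diet, without overlap (1.14 ± 0.20, adjusted p = 0.0323; 0.96 ± 0.16 without replicate 7). Cstb was at 10.31, 10.24, 9.99 and 10.05 and at 11.19, 11.00, 11.50 and 11.40, again without overlap (1.13 ± 0.13, adjusted p = 0.00869; 1.05 ± 0.13 without replicate 7). Gusb, the lysosomal glucuronidase, differed by 1.03 ± 0.21 (adjusted p = 0.0548) and passed without replicate 7 (0.80 ± 0.14, adjusted p = 0.0251). In 9 of the 37 (24.3%) the high-fat arrays all exceeded the low-fat arrays, in 0 the reverse held, and the median was 0.31, or 0.37 without replicate 7. Ctsd, the protease cathepsin D, was between 11.43 and 11.71 in the low-fat arrays and at 12.32, 12.41, 9.56 and 12.37 in the high-fat arrays, with replicate 7 apart (0.10 ± 0.56; 0.80 ± 0.33 without it). Without the 3 arrays 8 of the list were called, all higher, including Ctsd (adjusted p = 0.00535), Plin2, a coat protein of lipid droplets (0.99 ± 0.17, adjusted p = 0.0164), and Ctsk, a collagen-degrading cathepsin (1.00 ± 0.18, adjusted p = 0.0203). The share of all genes called higher in that fit was 1.98%. Neutrophil, mast cell and dendritic cell genes had 9 of 30 positive, 0 called, 0 with high-fat arrays all above and 5 (16.7%) all below the low-fat arrays, beside 2.87% of all genes, and a median of -0.12. Lymphocyte markers had a median of 0.05 over 31 genes, with 0 called, and interferon-induced genes 0.29 over 37, with Cxcl9 called.

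Matrix genes included Lox, the largest increase among the genes called. Its protein, lysyl oxidase, crosslinks collagen and elastin. The level was at 5.30, 5.41, 5.42 and 5.79 on the low-fat diet and 6.98, 6.66, 8.10 and 7.39 on the high-fat diet. All high-fat arrays were higher, replicate 7 the most, by 1.80 ± 0.24 in the mean, or 3.49-fold (adjusted p = 0.00889; 1.53 ± 0.16, adjusted p = 0.000802, without it). For a dimmer probe set of Lox the difference was 0.07 ± 0.16 (adjusted p = 0.847 among all probe sets). Lum, which encodes lumican, a proteoglycan that organises collagen fibrils, was at 7.78, 7.85, 8.18 and 8.54 and at 9.16, 9.03, 10.30 and 9.51, without overlap (1.41 ± 0.25, adjusted p = 0.0381; 1.14 ± 0.18 without replicate 7). Of 52 measured matrix genes these 2 rose and 0 fell, 7 (13.5%) had high-fat arrays all above and 1 (1.92%) all below the low-fat arrays, and the median was 0.07. The fibrillar collagen gene Col1a1 differed by 0.40 ± 0.27 (adjusted p = 0.446) and Col6a1 by -0.28 ± 0.25 (adjusted p = 0.55; -0.04 without replicate 7). Actn1, an actin crosslinker, rose by 0.93 ± 0.17 (adjusted p = 0.0474; 0.77 ± 0.14 without replicate 7), but its other probe sets gave 0.31 ± 0.16 and -0.48 ± 0.36.

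Genes of prostaglandin E2 metabolism moved in opposite directions. Hpgd, the dehydrogenase that inactivates prostaglandins, was at 6.27, 6.43, 6.86 and 6.74 on the low-fat diet and 7.89, 7.35, 9.32 and 8.30 on the high-fat diet (1.64 ± 0.31, adjusted p = 0.0475; 1.27 ± 0.19, adjusted p = 0.0127, without replicate 7). Ptges, the synthase that forms prostaglandin E2, was at 7.54, 7.47, 7.38 and 7.49 and fell to 6.75, 6.08, 5.37 and 5.88 (-1.45 ± 0.22, adjusted p = 0.0163; -1.23 ± 0.18 without replicate 7). Neither gene overlapped between the diets, and replicate 7 was the most extreme array in both. Ptger3, a receptor of prostaglandin E2 that restrains lipolysis, was at 3.91, 3.98, 4.66 and 4.98 and at 5.67, 6.13, 7.59 and 6.32, also without overlap. Its difference of 2.05 ± 0.40 had an adjusted p of 0.054, and without replicate 7 it passed (1.66 ± 0.32, adjusted p = 0.0452); a dimmer probe set of Ptger3 gave 0.19 ± 0.16. The other 18 of 21 measured genes of the pathway were not called with all arrays, and the median of the list was -0.05. Ptgs2, the inducible cyclooxygenase, had a mean of 3.10 on the low-fat diet, near the lowest value in the table, 2.26.

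The other genes that passed were Chchd10, Upk3b and Pxmp2. Chchd10, a protein of the mitochondrial intermembrane space, was at 9.03, 8.85, 8.96 and 8.83 and at 10.20, 9.71, 10.35 and 10.40 (1.25 ± 0.17, adjusted p = 0.00889; 1.19 ± 0.17 without replicate 7). Pxmp2, a channel of the peroxisomal membrane, was at 8.94, 8.86, 8.96 and 8.86 and at 8.26, 8.25, 8.31 and 8.38, the narrowest spread on both diets among the genes that fell (-0.60 ± 0.10, adjusted p = 0.0231; -0.61 ± 0.10 without replicate 7). Upk3b, a uroplakin and marker of mesothelium, was at 7.62, 7.59, 7.40 and 7.38 and at 7.10, 6.73, 6.46 and 6.84 (-0.72 ± 0.13, adjusted p = 0.0474; -0.61 ± 0.12 without replicate 7). No values overlapped in these 3 genes. Of 15 measured mesothelial genes 14 had a negative difference, 1 of them called, and the median was -0.31, or -0.23 without replicate 7; their mean level was between 6.60 and 6.90 on the low-fat diet and between 6.28 and 6.56 on the high-fat diet. The part of mesothelium in the pad in the fall of Upk3b was not tested.

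Without replicate 7, 15 genes were called that were not with all arrays, 13 higher and 2 lower. Car3, the carbonic anhydrase abundant in adipocytes, was at 12.36, 12.69, 12.96 and 13.03 on the low-fat diet and 10.98, 11.17, 12.58 and 11.45 on the high-fat diet. Replicate 7 lay within the low-fat range (-1.21 ± 0.29, adjusted p = 0.119, with it; -1.56 ± 0.18, adjusted p = 0.00145, without it). Pltp, the phospholipid transfer protein, was between 10.12 and 10.41 and at 11.49, 11.34, 8.74 and 11.73, so that replicate 7 was the lowest of the 8 arrays (0.50 ± 0.50, adjusted p = 0.59; 1.19 ± 0.18, adjusted p = 0.0127, without it). Dmpk, a kinase of muscle and other tissues, differed by 1.06 ± 0.22 and by 1.32 ± 0.13 without replicate 7 (adjusted p = 0.0692 and 0.000602). Lrp5, a Wnt co-receptor, was at 8.28, 8.14, 8.07 and 8.14 and at 7.72, 7.39, 5.92 and 7.22 (-1.10 ± 0.28, adjusted p = 0.147; -0.72, adjusted p = 0.0251, without replicate 7). Lpcat3, a phospholipid acyltransferase, went from an adjusted p of 0.054 to 0.0127 (1.06 ± 0.21 and 0.81). Of the 23 genes called with all arrays, 20 had a difference closer to 0 without replicate 7.

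**Figure D3:**
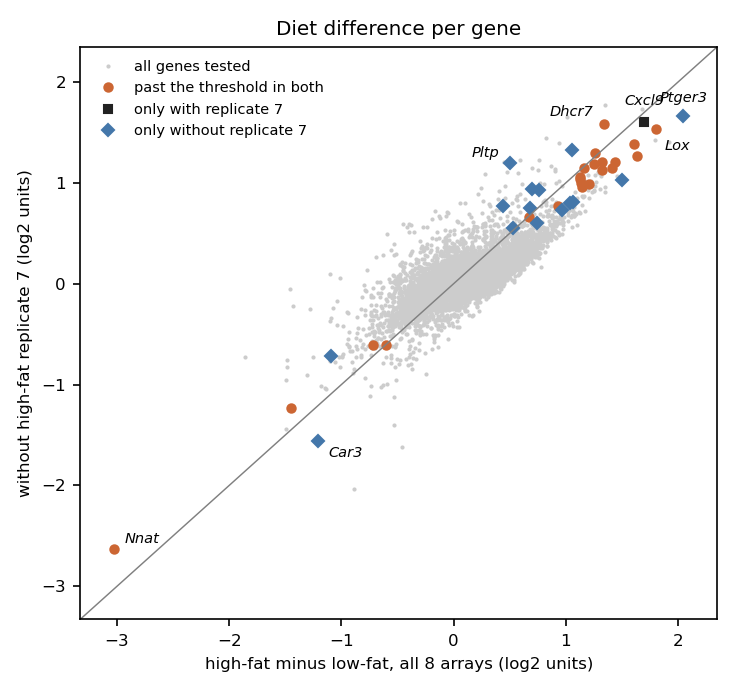
Each point is a gene; the horizontal axis is its high-fat minus low-fat difference with all 8 B6 arrays and the vertical axis that without high-fat replicate 7, both in log2 units, with a line of equal values and the genes that passed in neither fit in grey. Orange points passed the threshold in both fits (22 genes), the black square, Cxcl9, with replicate 7 alone, and the 15 blue diamonds without it alone; Pltp lies above the line, with 1.19 against 0.50.

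The adipocyte hormones Lep, Adipoq and Retn did not pass with all arrays. Lep, which encodes leptin, was at 12.44, 12.43, 12.27 and 12.70 on the low-fat diet and 12.88, 12.86, 13.55 and 13.19 on the high-fat diet. The high-fat arrays were all higher, yet the difference of 0.66 ± 0.18 had an adjusted p of 0.155 (0.52 ± 0.16, adjusted p = 0.221, without replicate 7). Adipoq, which encodes adiponectin, was at 11.88, 12.27, 12.55 and 12.57 and at 11.40, 11.38, 12.45 and 11.79. Replicate 7 lay among the low-fat arrays and the other 3 below them (-0.56 ± 0.24, adjusted p = 0.309; -0.79 ± 0.19, adjusted p = 0.122, without it; adjusted p = 0.0333 without the 3 arrays). Retn, which encodes resistin, was at 10.72, 10.81, 10.83 and 11.28 and at 9.86, 10.05, 11.32 and 10.44. Replicate 7 was here the highest of the 8 arrays and the other 3 high-fat arrays lay below the low-fat arrays (-0.49 ± 0.31, adjusted p = 0.418; -0.79 ± 0.25, adjusted p = 0.243, without it; adjusted p = 0.026 without the 3 arrays). Of 19 measured adipokine genes 0 were called, 3 (15.8%) had high-fat arrays all above and 1 (5.26%) all below the low-fat arrays, and the median was 0.02. Pparg, the nuclear receptor that directs adipocyte differentiation, differed by 0.57 ± 0.29 (adjusted p = 0.361; 0.25 without replicate 7). Cebpa, its partner, was at 8.52 in replicate 7 and between 11.00 and 11.69 in the other 7 arrays (-0.95 ± 0.61, adjusted p = 0.426; -0.28 without it). Slc2a4, the insulin-regulated glucose transporter, was between 7.77 and 8.25 and at 7.72, 7.54, 6.23 and 7.66 (-0.65 ± 0.32, adjusted p = 0.349; -0.30 without replicate 7). Pnpla2, the first triglyceride lipase of lipolysis, was at 9.56 in replicate 7 and between 11.59 and 12.18 elsewhere (-0.45 ± 0.49; 0.16 without it). Lpl, which frees fatty acids from blood triglyceride, differed by 0.00 ± 0.19.

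For several pathways the median depended on replicate 7. Genes of fatty acid oxidation had a median difference of 0.50 over 29 genes with it and 0.23 without it, proteasome genes 0.52 over 37 and 0.33, and oxidative phosphorylation genes 0.29 over 64 and 0.15. None of these genes was called by limma with all arrays or without replicate 7. Without the 3 arrays 2 of oxidation were called, Pdk4, a kinase that restrains pyruvate oxidation (adjusted p = 0.0287), and Crat, a carnitine acetyltransferase (adjusted p = 0.0317), 3 of the proteasome, Psmd11, Psmd12 and Psmb9, and 0 of oxidative phosphorylation, the 5 calls all higher. In that fit 1.98% of all genes were called higher. The share with all high-fat arrays above all low-fat arrays was 5 of 29 (17.2%) for oxidation, 14 of 37 (37.8%) for the proteasome and 5 of 64 (7.81%) for oxidative phosphorylation, beside 5.73% of all genes. The mean level of the oxidative phosphorylation genes was between 8.17 and 8.33 in the low-fat arrays and at 8.37, 8.32, 8.91 and 8.61 in high-fat replicates 2, 6, 7 and 8. It was thus highest in the arrays with the highest Gapdh signals, and the part of RNA quality in it was not tested.

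Markers of other cell types were measured beside these groups. Smooth muscle and pericyte genes had negative differences in 17 of 19, with 0 called, a median of -0.23 and a mean level of 6.99 to 7.13 on the low-fat diet and 6.64 to 6.85 on the high-fat diet. Endothelial genes had a median of -0.02 over 35, skeletal muscle genes 0.01 over 33 and fibroblast genes 0.08 over 37, with Lum called. Epididymis and reproductive tract genes had a median of -0.16 over 27 and 0 called. Their defining genes varied widely between pools: Lcn5, a lipocalin of the epididymis, had a mean of 8.64 ± 3.57 on the low-fat and 7.75 ± 3.16 on the high-fat diet (SD). Blood genes had a median of -0.15 over 12. The part of cell composition in any difference was not tested.

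**Figure D4:**
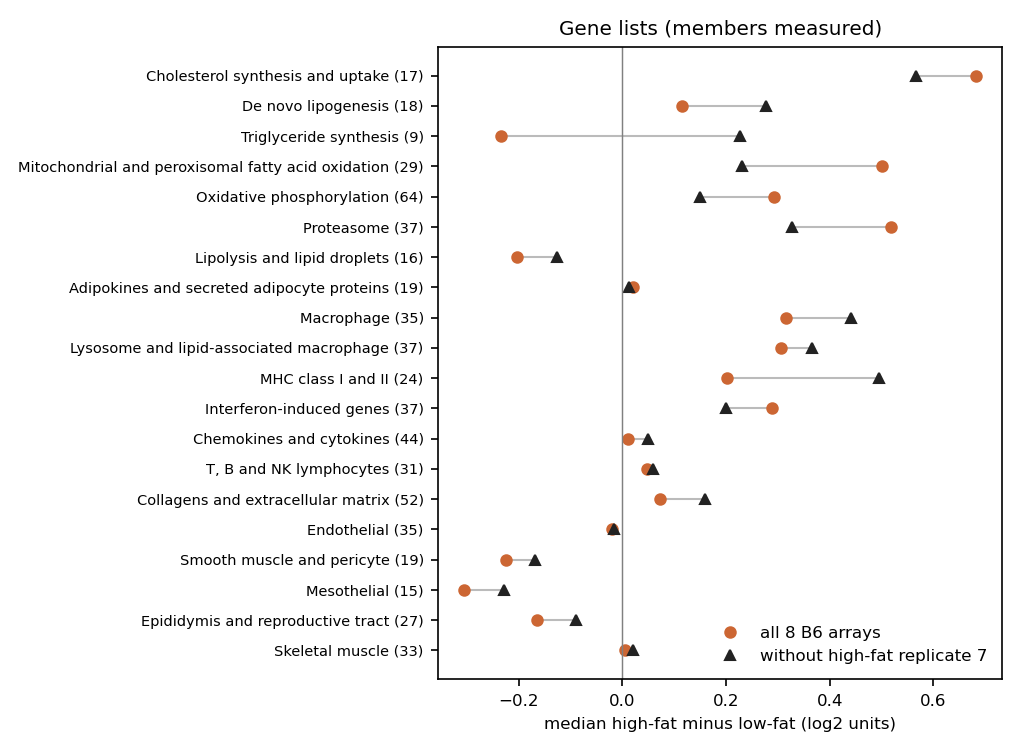
Each row is a gene list with its number of measured members, and the horizontal axis is the median over members of the high-fat minus low-fat difference in log2 units, with all 8 arrays (orange circles) and without high-fat replicate 7 (black triangles). Cholesterol synthesis is highest both ways, at 0.68 and 0.57, and triglyceride synthesis goes from -0.23 to 0.23.

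In the fit of all fat arrays, 62 genes (0.751%) were called for diet in 129S6 fat. Of the 23 genes called in B6, 11 were called there in the same direction and 21 had the same sign. The share of all genes with the same sign was not counted. Both strains share the estimate of the spread, and in both the highest Gapdh signals were on high-fat arrays. The part of array quality in this overlap was not tested. Nnat differed by -3.76 in 129S6 and -3.03 in B6, Scd2 by 1.92 and 1.14, and Lum by 1.44 and 1.41. Dhcr7 differed by -0.05 in 129S6 and 1.34 in B6, Ccl8 by -0.07 and 1.13, and Gpam by 0.38 and 1.44. With 129S6 high-fat replicates 12 and 13 left out, replicate 14 minus the 129S6 low-fat mean, a value from 1 high-fat array and with no test, was -2.49 for Nnat, 1.78 for Scd2, 1.17 for Lum, 0.41 for Dhcr7, -0.30 for Ccl8 and 0.29 for Gpam. The test of the difference itself, diet in B6 minus diet in 129S6, called 0 genes (0%) with limma, with 232 at an unadjusted p under 0.05 and a smallest adjusted p of 0.722. Among the 23, 7 had an unadjusted p under 0.05 in that test, the smallest for Ccl8 (1.20, unadjusted p = 0.000438). Lep differed by 1.94 in 129S6 and 0.66 in B6, which gives -1.27 ± 0.27 for the test (adjusted p = 0.722). Without B6 high-fat replicate 7 the test called 6 genes (0.0727%): Lep (-1.42, adjusted p = 0.0488), Ccl2 (-2.40, adjusted p = 0.0183), Anxa3, Agt (1.65, adjusted p = 0.0118), Nr1d1 and Tst. That fit kept 129S6 high-fat replicates 12 and 13, with Gapdh signals of 5.81 and 5.93, so array quality was not balanced between the strains. With those arrays left out as well, the differences were -1.45 for Lep, -1.99 for Ccl2 and -1.52 for Anxa3. They were 1.40 for Agt, 1.27 for Nr1d1 and 1.68 for Tst, with 1 high-fat array left in 129S6. The test did not call these 6 genes there. Without the 3 arrays it called 4 (0.0485%): Retn (2.05, adjusted p = 0.0243), Cyp2e1, Fam20c and Cyp4a14, with 1 array left on the high-fat diet in 129S6, assumed to vary like the other groups.

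**Figure D5:**
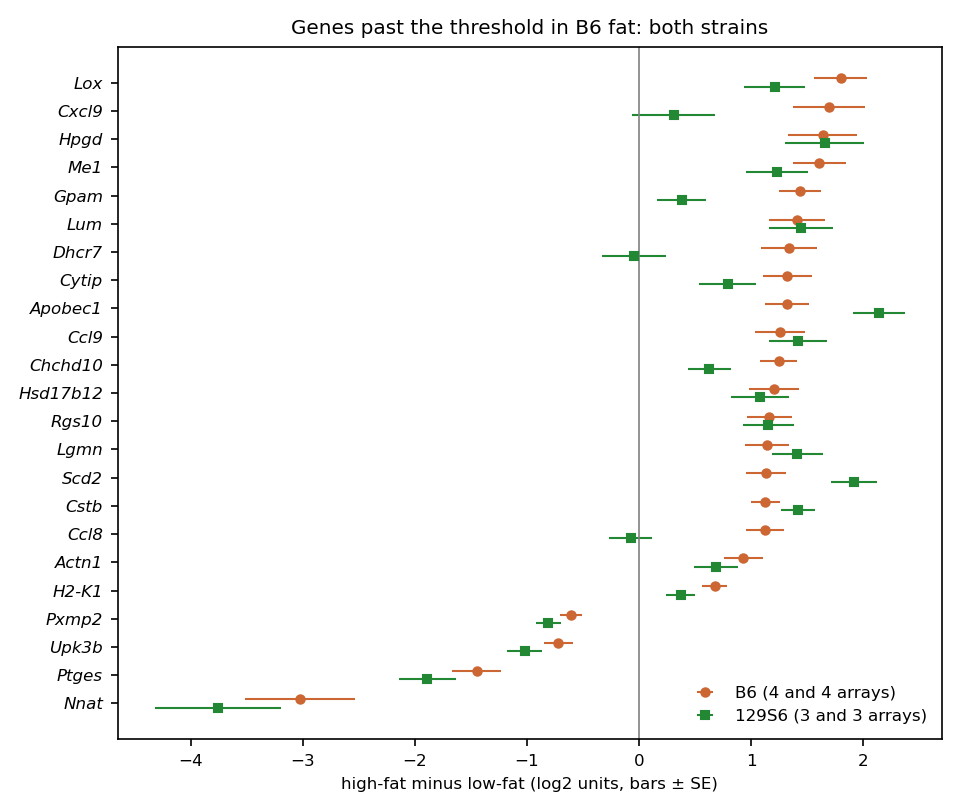
Each row is a gene called in B6 fat; circles give the high-fat minus low-fat difference in B6 (4 arrays on each diet) and squares that in 129S6 (3 on each diet), in log2 units, with bars of ± SE. Nnat is the most negative in both, at -3.03 and -3.76, and Dhcr7 and Ccl8 are near 0 in 129S6, at -0.05 and -0.07, with all arrays.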

How the data were processed

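The deposited values are log2 levels from RMA, per the submitters' processing notes, a method that subtracts background, equalises the arrays' distributions and summarises each probe set; the sources used here give no version. RMA forces the arrays towards 1 distribution, so shifts common to most genes cannot be seen. Of 12488 probe sets, 10833 carried 1 gene symbol in the platform annotation (66 controls, 396 several, 1193 none), and 10817 of these were matched by Entrez ID to RefSeq. For each gene the brightest probe set over the 14 fat arrays was kept, giving 8251 genes. Tests used limma 3.58.1 (R 4.3.3), fitting 1 mean per fat group (4 groups) with moderated variances, two-sided, adjusted by Benjamini and Hochberg. The arrays were grouped by their labels; the members and the gene lists were chosen with earlier results of these data known. Genes named were drawn from the 12 largest differences each way among those called with groups apart and up to 4 called members of each list. Further sources were a short list of known fat genes and the 6 smallest p each way of the strain test. Not all of these are named in the text. Up to 3 members were added from lists with at least 4 calls without the 3 arrays with a Gapdh signal above 3. Cstb, Rgs10, Actn1, Cd72, and the genes called or named from fits without arrays or for other lists were chosen after their values were seen. Alternatives were all or only gene-specific probe sets, no dim genes, quantile normalization, the B6 arrays alone, an intensity trend, array weights, the Gapdh signal as a covariate and each array left out. In simulated data on 8251 genes for B6 diet, with 200 changed, 78% of changes of 1 and 97% of changes of 2 log2 units were recovered, with 12 false calls. The simulated noise was normal, independent between arrays and of the same spread in every group of a gene, with no array apart. These rates need not hold for the measured arrays. Plots used Python 3.11.15 and matplotlib 3.10.9.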

Additional observations from a re-analysis of the deposited data

Results flagged for a closer look

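Values far from the others of their diet were looked for in 178 groups of 4 arrays with Dixon's 95% criterion, which chance meets in about 1 of 20 groups where genes are not chosen by these values; 15 met it, 12 of them in high-fat replicate 7. Of the 15, 6 (4 in replicate 7) are in Pltp, Nabp1, Slco3a1, Ctsd and Cd74. These genes were named because they passed without replicate 7 or the 3 arrays, so that rate does not apply to them. Nor does it apply to Gpam and Rgs10, named because they were called with all arrays. High-fat replicate 7 had a mean correlation of 0.8773 with the other B6 fat arrays, and those of the other high-fat arrays were 0.9636 to 0.9687. It was the highest high-fat array for Gpam (10.89, the others 9.926 to 10.04) and for Nabp1 (6.827, the others 4.858 to 5.076). It was the lowest for Npr3 (4.729), Slc2a4 (6.23), Cebpa (8.521), Pltp (8.743), Col6a1 (9.171), Cd74 (9.449), Pnpla2 (9.563), Ctsd (9.563) and Hp (12.13), the other high-fat arrays of Npr3 lying between 9.471 and 9.674. The remaining values were Rgs10 in low-fat replicate 5 (6.591, the others 6.244 to 6.279), Nabp1 in low-fat replicate 1 (3.738) and Slco3a1 in high-fat replicate 8 (7.288). The part of RNA quality in these values was not tested.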

How the results depend on the processing

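No paired analysis was possible because the B6 low-fat and high-fat arrays share no replicate number. Alternatives without the 3 arrays of high Gapdh signal, without high-fat replicates 7 and 8, and with the B6 arrays alone without replicate 7 were chosen after seeing the data. Against 23 genes called (19 higher, 4 lower), there were 13 (11 and 2) with gene-specific probe sets, 13 (11 and 2) with an intensity trend, 1 (1 and 0) with the 8 B6 arrays alone, 114 (97 and 17) with array weights, 182 (163 and 19) without the 3 arrays and 74 (67 and 7) with the B6 arrays alone without replicate 7. Leaving out single arrays gave 1 to 39 (1 to 35 higher, 0 to 6 lower). The strain test, with 0 calls, gave 4 with the Gapdh signal as a covariate, 4 without the 3 arrays, 13 without high-fat replicates 7 and 8, and 0 to 6 with single arrays left out. Over 19 settings 2 called genes changed sign, both with gene-specific probe sets (H2-K1 -0.07758, Actn1 -0.4751), as did 16 named genes that were not called. With the Gapdh covariate the differences were 0.04569 for Cebpa, 0.06711 for Srebf1, -0.1878 for Lpl, 0.2055 for Pnpla2, 0.09009 for Lipe, 0.2634 for Npr3, -0.1899 for Cav1, 0.07326 for Col6a1 and 0.688 for Cd74. Array weights gave Srebf1 0.001549, Lpl -0.2189, Pnpla2 0.1139, Mest -0.08649, Cav1 -0.2042 and Cd74 0.5332. Quantile normalization gave Lpl -0.05607, Cav1 -0.03998 and Ctsd -0.04229. Without replicate 7, without the 3 arrays and with the B6 arrays alone without replicate 7, the values were equal: Srebf1 0.03, Lpl -0.188, Pnpla2 0.1649, Cav1 -0.1501 and Cd74 0.6524. Without replicates 7 and 8 they were Srebf1 0.004734, Lpl -0.2929, Pnpla2 0.08451, Mest -0.1729, Cav1 -0.2829 and Cd74 0.5601. With single arrays left out, the difference ranged from -0.1353 to 0.03 for Srebf1, -0.188 to 0.134 for Lpl, -0.706 to 0.1649 for Pnpla2, -0.1501 to 0.2282 for Cav1, -0.3585 to 0.1632 for Mmp12, -0.1047 to 1.089 for C1qb, -0.1434 to 0.8045 for Ctsd, -0.05513 to 0.824 for H2-Eb1, -0.4378 to 0.6524 for Cd74, -0.3158 to 0.7997 for Capg and -0.1381 to 0.6575 for Coro1c. The cause of these changes was not tested. With 4 pools a diet and adjusted p-values near 0.05, the count of calls depends on single arrays, and a gene that was not called is not shown to be unchanged.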
